A study of Mus musculus with 8 samples.

Results

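The 9 genes followed here act in hepatic glucose output and glycogen handling: G6pc, Pck1, Fbp1, Pcx, Gckr, Slc2a2, Ppp1r3b, Gys2 and Pygl. They were taken by symbol from the list of named members, and all 9 of 9 were found both in the table of 13774 genes that holds the transgenic livers and in the table of 11773 genes that holds the heterozygous livers.

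The libraries were made from total liver RNA of C57BL/6 mice, all of them fed a high-fat diet (42% fat) over 8 weeks, so that no group on another diet enters any comparison. The groups were Ube3a TG homo, homozygous for a transgene that overexpresses Ube3a, with its own WT pair, and Ube3a het, with 1 knockout and 1 WT allele, with a second WT pair. Each group had 2 libraries. The sources used here give neither age, nor the promoter of the transgene, nor whether a library is a single animal, so p-values measure the spread between these libraries, which may be technical. UBE3A marks proteins for degradation as an E3 ubiquitin ligase, and the series' title places it in hepatic steatosis.

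The liver releases glucose by gluconeogenesis and by breaking down glycogen, and stores it as glycogen after a meal. Glucagon, acting through cAMP and CREB, and insulin, acting through AKT and the forkhead factor FOXO1, set transcription of Pck1 and G6pc in opposite directions, so both genes are known to vary strongly with feeding and fasting. The glucokinase regulatory protein and the transporter GLUT2 take part in coupling hepatocyte glucose uptake to blood glucose, and glycogen synthase and phosphorylase are switched largely by phosphorylation, which RNA does not show.

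The sequence before the start is printed for the pair of genes with the widest spread over the libraries. Capitals mark the motifs found: in Pck1 the short core of the cAMP response element, TGACG, lying on the opposite strand and therefore read as CGTCA, and in G6pc the forkhead motif TGTTTGC.
Pck1: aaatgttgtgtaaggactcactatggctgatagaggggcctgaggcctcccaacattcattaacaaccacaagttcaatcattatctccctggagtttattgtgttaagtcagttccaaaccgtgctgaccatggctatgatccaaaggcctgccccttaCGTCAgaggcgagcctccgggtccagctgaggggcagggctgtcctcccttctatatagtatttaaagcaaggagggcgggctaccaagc
G6pc: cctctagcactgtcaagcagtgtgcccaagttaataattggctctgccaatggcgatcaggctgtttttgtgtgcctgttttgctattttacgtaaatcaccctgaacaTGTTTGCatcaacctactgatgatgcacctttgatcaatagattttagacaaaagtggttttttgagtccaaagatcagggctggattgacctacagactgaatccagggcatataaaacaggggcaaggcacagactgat
Both are the 250 bases before the RefSeq start on GRCm38.p6, plus strand, 5′ to 3′, at chr2:173152823-173153072 for Pck1 and chr11:101367466-101367715 for G6pc. The search covered both strands of the 250 bases before and the 50 after each start, for the full cAMP response element TGACGTCA and the core TGACG that it contains, for the forkhead motifs TGTTTAC and, as a variant, TGTTTGC, and for the E-box CACGTG. The core began 90 bases before the Pck1 start and 44 before that of Pygl, and 20.8% of the 32851 promoters of that length hold it. TGTTTGC began 141 bases before the G6pc start, and 5.07% of all promoters hold it. CACGTG began 248 bases before the more distal of the 2 starts of Pcx, and 7.15% of all promoters hold it. The full element TGACGTCA, held by 1.79% of promoters, and TGTTTAC, held by 3.65%, were in none of the 8 member promoters searched, which cover 7 of the 9 genes. No motif was found for Gckr, Slc2a2 and Fbp1. These matches describe letters in these windows only.

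All values are normalised read counts, meaning read counts of a gene scaled by the authors with 1 factor for each library. The TG and het tables were normalised separately, so each mutant was tested within its own table by limma on log2(value + 1), and the log2 fold changes are on that scale with their standard errors (SE). Reads assigned to the listed genes, as worked back from the scaled values, came to 46940845 and 47928229 in the TG libraries, against 45672650 and 44193275 in their WT libraries, and to 17748088 and 13171145 in the het libraries, against 15530192 and 14581137 in theirs. The members lay far above the lowest levels listed, and no member was at 0 in any library. Ube3a checked the labels: it had 5991 and 5938 normalised reads in TG livers, against 1187 and 1359 in their WT livers, a 4.69-fold higher level (adjusted p = 0.0586), and 301 and 280 in het livers, against 369 and 409 in theirs, or 0.747 of the WT level (adjusted p = 0.129). Its groups were apart in the labelled direction in both tables. Antisense genes overlap the exons of Ube3a, and the sources used here do not say whether strand was used in counting. No exon of another gene overlaps those of the 9 members.

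The TG libraries stood apart from each other more than any other pair did. The median absolute log2 gap between replicates, over all genes, was 0.224 in TG, with 1017 genes over 2-fold, against 0.182 and 596 genes in their WT pair, and 0.142 and 161 genes in het, against 0.150 and 164 genes in theirs. The members' fold changes in TG are therefore given with and without either TG library. In any fit with a library left out, a single library stands for its group. The spread is then taken only from groups that kept both libraries, so a pass of the test there does not measure the spread within the reduced group.

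Scaled to counts per kilobase of exon and to library size (CPM per kilobase), Pck1 and Fbp1 held the first 2 places among the 9 genes in all 4 groups. Pck1 led in TG livers, at 842 ± 781 (SD, n = 2, as for all values in this paragraph), and in their WT livers, at 928.5 ± 179.5, against 689 ± 94.7 for Fbp1, a gap within the SDs combined. Fbp1 led in het livers, at 816 ± 66.6, and in their WT livers, at 794 ± 97.7, where Pck1 had 418 ± 135. Within TG the order of Pck1 and Fbp1, at 567 ± 98.3, was not resolved, since the spread of Pck1 alone covered the gap, and in het livers Pck1, at 793 ± 45.1, lay within the spread of Fbp1. G6pc and Pcx held places 3 and 4 in TG, at 156 ± 135 and 141 ± 28.5, an order not resolved at that spread, and in their WT livers, at 235 ± 34.0 and 169 ± 16.0. In the het livers Pcx held place 3 at 222 ± 1.25 and G6pc place 4 at 141 ± 25.3, while in their WT livers Pcx held place 3 at 153 ± 11.2, Gys2 place 4 at 123 ± 7.91 and G6pc place 6 at 78.7 ± 20.97, within its SD of Pygl at 88.7 ± 1.16. The other genes were closer together: Pygl, Gys2, Ppp1r3b, Gckr and Slc2a2 spanned mean levels of 68.7 to 87.0 in TG livers and 47.8 to 77.3 in their WT livers, and neighbours in that order lay within their SDs of each other except Gckr, at 69.1 ± 10.7, and Slc2a2, at 49.2 ± 8.58, in those WT livers. In het livers the same 5 genes spanned 42.3 to 83.0, and Gckr (63.6 ± 2.34), Ppp1r3b (49.3 ± 1.55) and Slc2a2 (42.3 ± 1.66) were each farther apart than their SDs combined. In the WT livers of that table they spanned 35.9 to 123, with every gap between neighbours among the 5 wider than the SDs combined.

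**Figure D1:**
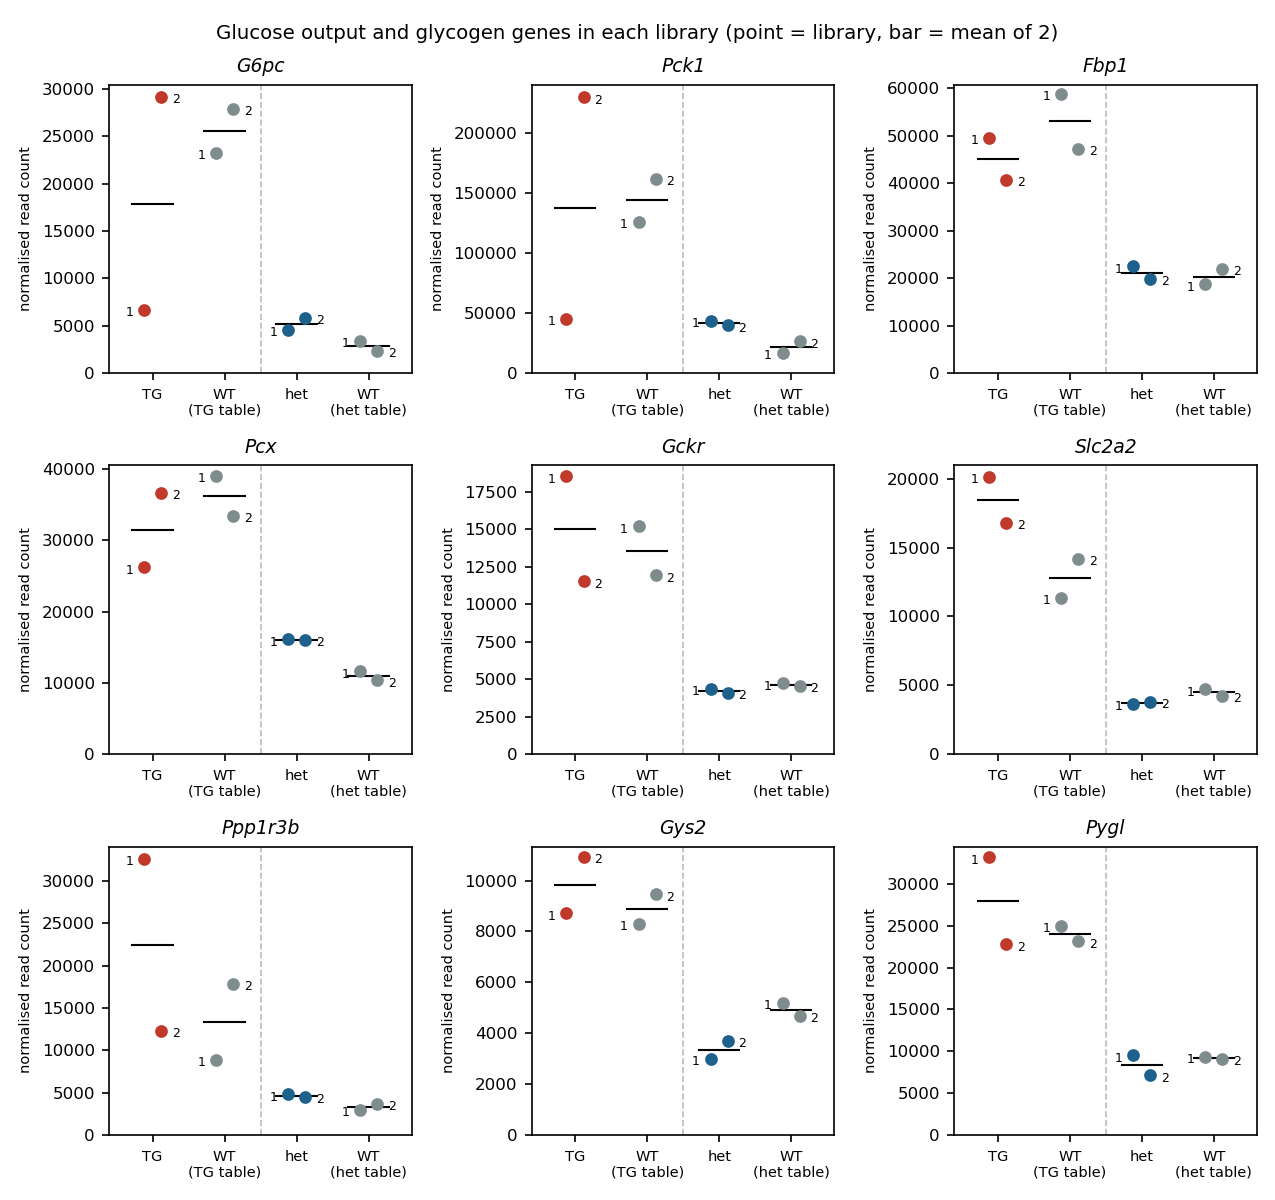
Normalised read count of each of the 9 genes in every library, on linear axes that start at 0, with replicate numbers beside the points and a bar at the mean of 2; the dashed line parts 2 tables that were normalised separately. G6pc and Pck1 are far lower in TG replicate 1 than in the other libraries of that table, and in the het table G6pc, Pck1, Pcx and Ppp1r3b lie higher in both het libraries than in both WT libraries.

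No member passed the threshold of an adjusted p of 0.05 in either mutant or for the difference between them, by limma with Benjamini-Hochberg adjustment over all genes. In TG livers 0 of 9 members passed, beside 0% of all genes (0 of 13774). In het livers 0 of 9 passed, beside 1.44% of all genes (169 of 11773, 105 higher and 64 lower). At an unadjusted p under 0.05 there was 1 member in TG, Slc2a2, which was higher, beside 9.12% of all genes (5.15% higher and 3.96% lower). In het there were 6 such members, beside 14.7% of all genes: 4 higher, beside 8.58%, and 2 lower, beside 6.11%. The unadjusted TG calls over all genes split into 710 higher and 546 lower, and into 438 higher and 687 lower when libraries were scaled without the 20 most abundant genes. An exact two-sided permutation test of 2 libraries against 2 cannot go below p = 0.333. The medians of the 9 log2 fold changes were 0.12 in TG and 0.06 in het, beside 0.00 over all genes in each table; with a library left out the members' medians ran from −0.06 to 0.05 in TG and from −0.06 to 0.18 in het.

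Of the gluconeogenic enzymes, G6pc encodes the catalytic subunit of glucose-6-phosphatase, which performs the last step by which glucose leaves the hepatocyte. The gene lies at chr11:101367561-101377903 on the plus strand (GENCODE M21, GRCm38, as for all gene positions here). G6pc had 6643 and 29120 normalised reads in the TG libraries, against 23239 and 27901 in their WT libraries. TG replicate 1 was below both WT libraries and TG replicate 2 above both, so the groups overlapped. The log2 fold change was −0.87 (SE 0.78, adjusted p = 0.744). Without TG replicate 1 it was 0.19, and without TG replicate 2 it was −1.94, so a single library set its direction. In the het libraries G6pc had 4550 and 5813, against 3418 and 2304 in their WT libraries, and both het libraries were above both WT libraries. The log2 fold change was 0.87 (SE 0.23, adjusted p = 0.186). It was 1.16 without WT replicate 1 and 0.59 without WT replicate 2.

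Pck1, at chr2:173153048-173159273 on the plus strand, encodes the cytosolic phosphoenolpyruvate carboxykinase, which turns oxaloacetate into phosphoenolpyruvate. It had 45345 and 229468 normalised reads in the TG libraries, against 125535 and 161615 in their WT libraries. As for G6pc, TG replicate 1 was below both WT libraries and TG replicate 2 above both. The log2 fold change of −0.48 (SE 0.84, adjusted p = 0.865) became 0.69 without TG replicate 1 and −1.65 without TG replicate 2. In the het libraries Pck1 had 43289 and 39565, against 16736 and 26302 in their WT libraries, again with both het libraries above both WT libraries. That log2 fold change was 0.98 (SE 0.22, adjusted p = 0.106), or 1.97-fold. It was 1.31 without WT replicate 2 and 0.65 without WT replicate 1.

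Pcx, at chr19:4510472-4621752 on the plus strand, encodes pyruvate carboxylase, the mitochondrial enzyme that feeds pyruvate into gluconeogenesis as oxaloacetate. The het libraries, at 16087 and 16061, were nearly level with each other and above their WT libraries, at 11603 and 10324. The log2 fold change was 0.55 (SE 0.12, adjusted p = 0.0701), the smallest adjusted p among the members, and still short of the threshold. In the TG libraries Pcx had 26201 and 36708, against 39070 and 33406 in their WT libraries. These groups overlapped, with TG replicate 1 the lowest of the 4, and the log2 fold change was −0.22 (SE 0.24, adjusted p = 0.779); it was 0.02 without TG replicate 1 and −0.46 without TG replicate 2.

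Fbp1, at chr13:62864753-62888282 on the minus strand, encodes the liver fructose-1,6-bisphosphatase, which removes a phosphate on the way to glucose 6-phosphate. It varied least of the 9 genes, with a range of 0.53 on the log2 scale over the 8 libraries once each was set against the mean of its WT pair. Fbp1 had 49540 and 40637 normalised reads in the TG libraries, against 58797 and 47307 in their WT libraries, and 22474 and 19830 in the het libraries, against 18688 and 21965 in theirs. Both comparisons overlapped, with log2 fold changes of −0.23 (SE 0.22, adjusted p = 0.751) in TG and 0.06 (SE 0.14, adjusted p = 0.879) in het. The TG value was −0.38 without TG replicate 1 and −0.090 without TG replicate 2. The 95% interval in het ran from −0.25 to 0.37, so changes of that size cannot be told from none.

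Slc2a2, at chr3:28697903-28731359 on the plus strand, encodes GLUT2, the low-affinity glucose transporter of the hepatocyte membrane. It was the member whose groups were apart in opposite directions in the 2 mutants. Slc2a2 had 20135 and 16819 normalised reads in the TG libraries, against 11334 and 14199 in their WT libraries, so both TG libraries were higher. The log2 fold change was 0.54 (SE 0.20, adjusted p = 0.541), and it was 0.41 without TG replicate 1 and 0.67 without TG replicate 2. In the het libraries Slc2a2 had 3621 and 3791, against 4697 and 4241 in their WT libraries, so both het libraries were lower. The log2 fold change there was −0.27 (SE 0.11, adjusted p = 0.299). Over all genes in both tables, 15.1% (1776 of 11768) were apart in opposite directions.

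Gckr, at chr5:31297443-31327314 on the plus strand, encodes the glucokinase regulatory protein, an inhibitor that acts in the hepatocyte nucleus at low glucose. It had 18523 and 11518 in the TG libraries, against 15185 and 11912 in their WT libraries, which overlapped (log2 fold change 0.12, SE 0.28, adjusted p = 0.902). Without TG replicate 1 the log2 fold change was −0.22, and without TG replicate 2 it was 0.46. It had 4325 and 4067 in the het libraries, against 4705 and 4522 in their WT libraries, with both het libraries slightly lower (log2 fold change −0.14, SE 0.10, adjusted p = 0.580).

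Of the glycogen genes, Gys2, at chr6:142422613-142473109 on the minus strand, encodes liver glycogen synthase. It had 3003 and 3706 normalised reads in the het libraries, against 5181 and 4670 in their WT libraries. Both het libraries were lower, at 0.678 of the WT level, with a log2 fold change of −0.56 (SE 0.13, adjusted p = 0.0860). In the TG libraries Gys2 had 8714 and 10941, against 8305 and 9458 in theirs, which overlapped (log2 fold change 0.14, SE 0.18, adjusted p = 0.809). That value was 0.30 without TG replicate 1 and −0.024 without TG replicate 2.

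Pygl, at chr12:70190811-70231488 on the minus strand, encodes liver glycogen phosphorylase, which releases glucose 1-phosphate. It had 33163 and 22775 in the TG libraries, against 25013 and 23127 in their WT libraries (log2 fold change 0.19, SE 0.24, adjusted p = 0.802), or −0.079 without TG replicate 1 and 0.46 without TG replicate 2. It had 9511 and 7131 in the het libraries, against 9347 and 9059 in theirs (log2 fold change −0.16, SE 0.15, adjusted p = 0.658). The mutant libraries lay on both sides of their WT pair in each table.

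Ppp1r3b, at chr8:35375739-35388139 on the plus strand, encodes the hepatic glycogen-targeting subunit of protein phosphatase 1, which activates glycogen synthase. It had 4789 and 4536 in the het libraries, against 2982 and 3724 in their WT libraries, with both het libraries higher (log2 fold change 0.48, SE 0.13, adjusted p = 0.122). In the TG libraries Ppp1r3b had 32613 and 12295, against 8843 and 17888 in their WT libraries. TG replicate 1 was the highest of the 4 and TG replicate 2 lay between the WT libraries, and the log2 fold change of 0.67 (SE 0.62, adjusted p = 0.748) was −0.03 without TG replicate 1 and 1.37 without TG replicate 2.

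**Figure D2:**
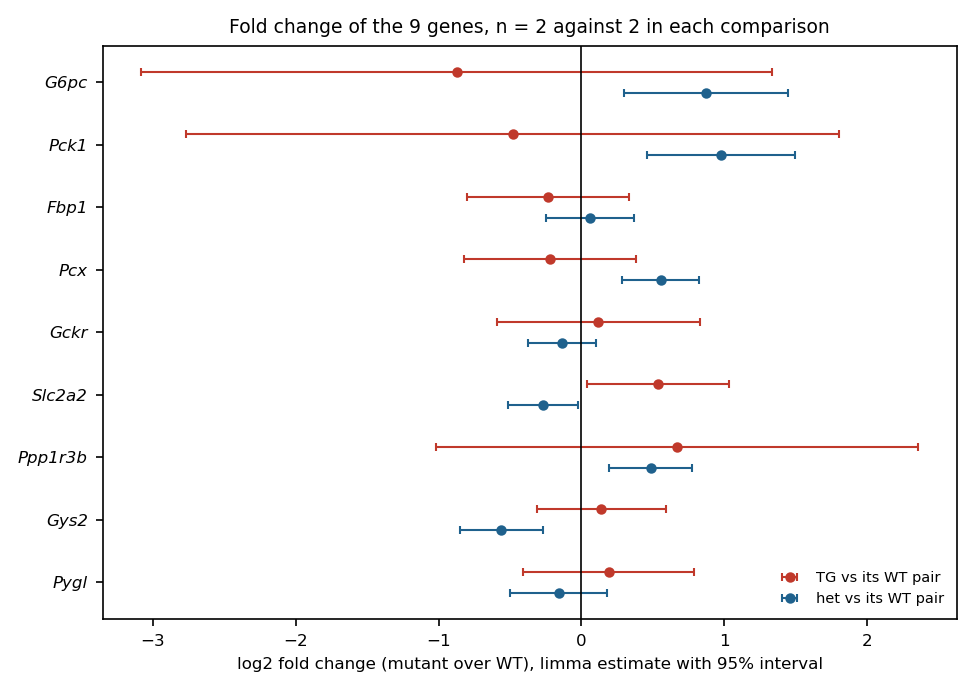
log2 fold change of each of the 9 genes, mutant over WT, as estimated by limma with its 95% interval, for TG (red) and het (blue), n = 2 against 2 in each. The TG intervals of G6pc, Pck1 and Ppp1r3b are the widest, and the het intervals of G6pc, Pck1, Pcx, Slc2a2, Ppp1r3b and Gys2 lie on one side of 0 before adjustment over all genes.

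Counted by overlap, 1 of 9 members in TG, Slc2a2, had both mutant libraries above both WT libraries, beside 21.8% of all genes, and 0 of 9 had both below, beside 21.6%. In het, 4 of 9 members, G6pc, Pck1, Pcx and Ppp1r3b, had both mutant libraries above, beside 24.3% of all genes, and 3 of 9, Gckr, Slc2a2 and Gys2, had both below, beside 23.7%. In either direction this made 1 of 9 members in TG, beside 43.5% of all genes, and 7 of 9 in het, beside 48%. The members were chosen with these results known, so the counts are a description.

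The ratio of Gys2 to Pygl reads, compared only between libraries of a table, was 0.316 and 0.520 in het libraries, against 0.554 and 0.516 in their WT libraries, and 0.263 and 0.480 in TG libraries, against 0.332 and 0.409 in theirs. Both ratios overlapped.

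The effects in TG and het were compared directly in a joint fit of the 8 libraries over 11754 genes, in which each table's own WT pair takes up its scale. In that fit 0 of 9 members passed, beside 0.434% of all genes (51 of 11754). At an unadjusted p under 0.05 there were 3 members, beside 16.7% of all genes: 2 with a larger value in TG, beside 8.42%, and 1 with a smaller value, beside 8.28%. These were Slc2a2, with a TG effect larger than the het effect by 0.81 on the log2 scale (SE 0.22, adjusted p = 0.159), Gys2, larger by 0.70 (SE 0.23, adjusted p = 0.210), and Pcx, with a difference of −0.77 (SE 0.27, adjusted p = 0.218). The differences for G6pc, −1.75 (SE 0.97, adjusted p = 0.434), and Pck1, −1.46 (SE 1.04, adjusted p = 0.532), were the largest in size and the least precise. The other members had differences of −0.29 for Fbp1, 0.19 for Ppp1r3b, 0.26 for Gckr and 0.35 for Pygl, with adjusted p of 0.585 to 0.926. Without TG replicate 2, the differences were −2.81 for G6pc, −2.63 for Pck1, −1.02 for Pcx and 0.93 for Slc2a2. Without TG replicate 1 they were −0.68 for G6pc, −0.29 for Pck1 and −0.53 for Pcx.

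**Figure D3:**
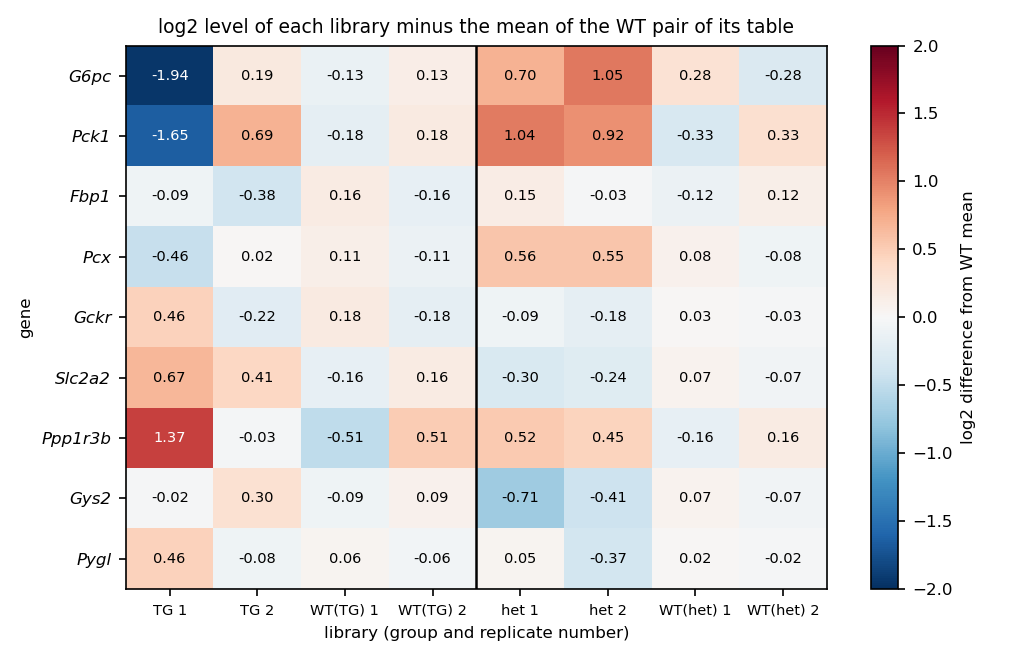
log2 level of each of the 9 genes (rows) in each library (columns), minus the mean of the WT pair of the same table; red is above and blue below that mean, and the black line parts the tables. TG replicate 1 holds both the lowest values, −1.94 for G6pc and −1.65 for Pck1, and the highest, 1.37 for Ppp1r3b, while no member differs by more than 0.42 between the het libraries.

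The spread within the TG pair fell on particular members. G6pc was 4.38-fold lower in TG replicate 1 than in TG replicate 2, a gap that 1.44% of all genes reached in either direction, and Pck1 was 5.06-fold lower, a gap that 1.15% of genes reached. Ppp1r3b was 2.65-fold higher in TG replicate 1, a gap that 3.56% of genes reached. The other 6 members differed by log2 gaps of 0.26 to 0.69 in size, which 13.8% to 44.2% of genes reached. In the WT pair of that table the widest gap among members was again that of Ppp1r3b, at 1.02, while those of G6pc and Pck1 were 0.26 and 0.36. In the het pair no member had a gap above 0.42, and in its WT pair Pck1 and G6pc had the widest, at 0.65 and 0.57, in opposite directions.

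Other genes of these pathways differed widely between the TG libraries too; the 6 with the widest gaps were picked after their values were seen. Igfbp1, a secreted binding protein induced in fasting and repressed by insulin, had 2692 and 19169 in TG replicates 1 and 2, against 4373 and 3415 in the WT libraries. Ppp1r3g, a glycogen-targeting phosphatase subunit, had 610 and 2990 in TG libraries, against 1574 and 738 in WT, and Sik1, a kinase gene induced by cAMP, had 1248 and 4029, against 1874 and 2051. Irs2, an insulin receptor substrate raised in fasting, had 591 and 1518, against 884 and 337. Pklr, the liver pyruvate kinase gene induced by carbohydrate, went the other way, with 49500.0 and 12289 reads in the TG libraries, against 16559 and 16707 in WT, as did Ppp1r3c, another glycogen-targeting subunit, with 2425 and 862, against 733 and 631. Thus TG replicate 1 was low in G6pc, Pck1, Igfbp1, Ppp1r3g, Sik1 and Irs2 and high in Pklr, Ppp1r3b and Ppp1r3c relative to TG replicate 2. Against the WT pair, TG replicate 2 was the farther library for Igfbp1, Ppp1r3g, Sik1 and Irs2, and TG replicate 1 for the rest. The ratio of Pklr to Pck1 reads was 1.09 and 0.0536 in TG libraries, against 0.132 and 0.103 in WT. In het libraries the ratio of Pklr to Pck1 was 0.188 and 0.133, against 0.349 and 0.260 in their WT libraries. It was lower in both het libraries than in both of their WT libraries, and the TG libraries lay on either side of theirs. The sources used here give neither the time of day nor a fed or fasted state at collection, and the part of either in these values was not tested.

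The genes of most similar profile were sought for G6pc and Pck1, the members of widest range (2.99 and 2.70 on the log2 scale), among 8556 genes with a mean of at least 100 in both tables. Likeness was the root mean square difference of the log2 level minus the mean of the table's WT pair, over 8 libraries. For G6pc these were Retsat (0.187), Serinc2 (0.233), Abhd6 (0.240), Sult2a1 (0.301) and Angptl4 (0.312), which encode a retinol saturase, a serine incorporator, a monoacylglycerol hydrolase, a sulfotransferase and a lipoprotein lipase inhibitor. For Pck1 they included Slc25a25 (0.202), Pim3 (0.205), Lipg (0.241) and Angptl4 (0.322), which encode a mitochondrial ATP-Mg and phosphate carrier, a kinase, endothelial lipase and the same lipase inhibitor. Angptl4 stood in both lists. All 8 of these genes were lower in TG replicate 1 than in every other library of that table, at −1.35 to −1.88, and they were chosen for this likeness, so that the values describe it only.

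**Figure D4:**
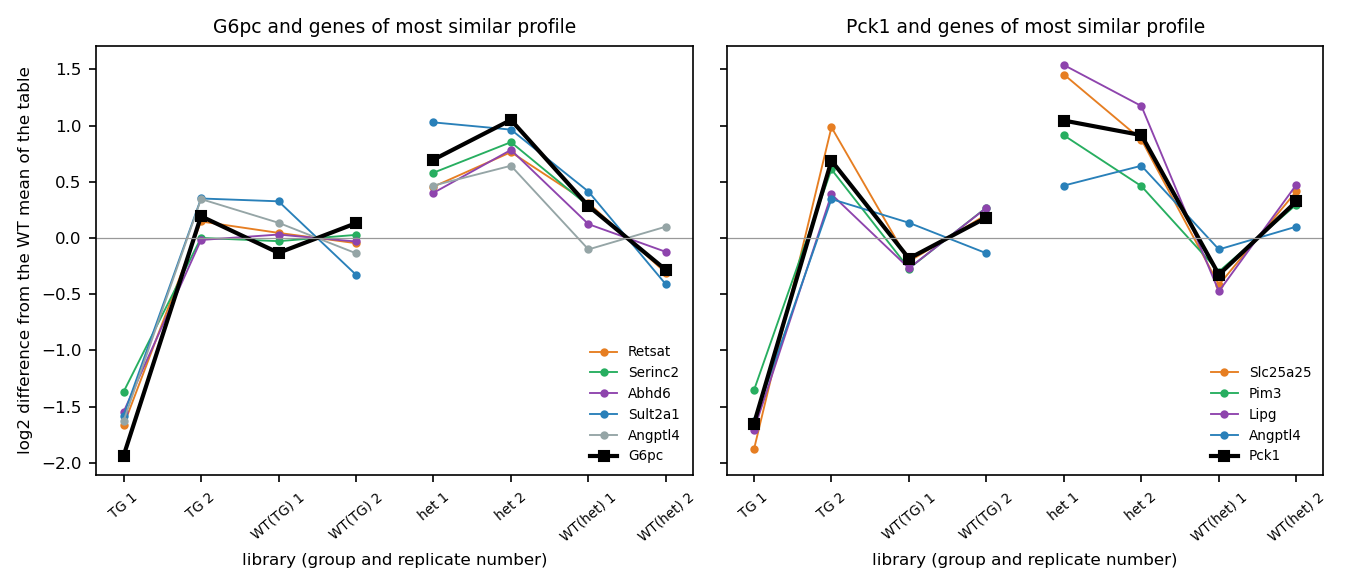
log2 level minus the mean of the WT pair of the same table, for G6pc (left) and Pck1 (right, black squares) and the named genes of most similar profile to each, over the 8 libraries; lines join libraries of a table for the eye only. TG replicate 1 is the low point of every profile, at −1.94 for G6pc and −1.65 for Pck1.

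Wider lists of the pathway, without the members, showed no gene past the threshold in TG, in het or in the difference. Of 25 listed genes for gluconeogenic enzymes and feeders, 22 were measured; 7 were above and 15 below WT in TG (median log2 fold change −0.09) and 16 above and 6 below in het (median 0.17). Of 22 genes for glucose uptake and glycolysis, all were measured in TG, with 11 above and 11 below (median −0.01), and 21 in het, with 14 above and 7 below (median 0.05). Of 28 glycogen genes, 26 were measured in TG, with 12 above and 14 below (median −0.05), and 24 in het, with 16 above and 8 below (median 0.08). All 32 hormonal and transcriptional regulators were measured, with 25 above and 7 below in TG (median 0.20) and 15 above and 17 below in het (median −0.01). Without TG replicate 1 and without TG replicate 2, the TG medians were −0.079 and −0.099 for the enzymes and feeders, −0.13 and 0.088 for uptake and glycolysis, −0.074 and 0.034 for glycogen, and 0.31 and 0.12 for the regulators. Without TG replicate 2, Pklr (log2 fold change 1.57), Ppp1r3c (1.83) and Foxa2, a forkhead factor named after its value was seen (adjusted p = 0.0496), passed the test in TG. Beside these, the median over all genes was 0.00 in both tables, and 0% of genes in TG, 1.44% in het and 0.434% in the difference passed.

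Among the feeders, Gpd1, which turns glycerol 3-phosphate into dihydroxyacetone phosphate, had 8593 and 17702 in TG libraries, against 24693 and 18336 in WT, and 8440 and 10233 in het, against 5513 and 3756 in WT. Its groups were apart in opposite directions (log2 fold changes −0.79 and 1.03, adjusted p = 0.598 and 0.0880). The TG value was −0.27 without TG replicate 1 and −1.31 without TG replicate 2, and the het value passed the test without WT replicate 1 (1.31, adjusted p = 0.0199). Aqp9, the glycerol channel, was lower in both mutants, with 14828 and 17647 in the TG libraries, against 22286 and 22781 in WT, and 5735 and 7600 in het, against 8988 and 8291 in WT (adjusted p = 0.539 and 0.283). Slc37a4, the transporter that brings glucose 6-phosphate to G6pc, had 3884 and 3849 in het, against 5506 and 5291 in WT, at a log2 fold change of −0.48 (SE 0.10, adjusted p = 0.0683), and 11685 and 10830 in TG, against 10243 and 11010 in WT (0.08, adjusted p = 0.866). Thus in het livers G6pc and Slc37a4, which act in turn on the same substrate, lay on opposite sides of WT. Pgam1 and Pgk1, reversible enzymes shared with glycolysis, had log2 fold changes of −0.39 and −0.30 in TG and of 0.32 and 0.31 in het, with adjusted p of 0.526 and 0.547 in TG and of 0.152 and 0.235 in het.

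Among the genes of glucose uptake and glycolysis, Pdk4, a kinase that inhibits pyruvate dehydrogenase in fasting, had the largest value of the het table's lists. It had 374 and 965 in het, against 89.7 and 66.6 in WT (log2 fold change 2.94, SE 0.59, adjusted p = 0.217; 3.62 without het replicate 1 and 2.26 without het replicate 2, both past the threshold), and 569 and 852 in TG, against 1501 and 363 in WT (−0.08, adjusted p = 0.982). The het libraries themselves differed widely, and the WT libraries of the TG table spanned both TG libraries. Slc2a1, the GLUT1 gene, had a log2 fold change of −0.14 for TG and of 0.58 for het (adjusted p = 0.838 and 0.106), and Pkm, the pyruvate kinase found outside hepatocytes, of −0.13 and 0.48 (adjusted p = 0.762 and 0.141). Pfkfb2, whose enzyme sets the fructose bisphosphate signal of glycolysis, had 0.38 in TG and −0.10 in het, Pdha1, a pyruvate dehydrogenase subunit, 0.01 and 0.32, Hk2, a hexokinase, −0.65 and 0.00, and Aldoc, an aldolase, 0.85 and −0.01, with adjusted p of 0.214 to 1.00 in all of these.

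Among the glycogen genes, Ppp1r3g had 127 and 166 in het, against 75.1 and 39.98 in WT (log2 fold change 1.39, SE 0.32, adjusted p = 0.114). Ugp2, which makes UDP-glucose for glycogen synthase, had 6315 and 6278 in het, against 7820 and 8547 in WT (−0.38, SE 0.11, adjusted p = 0.159), on the same side as Gys2. Gyg, the primer glycogenin, had 269 and 270 in TG, against 388 and 387 in WT (−0.52, SE 0.15, adjusted p = 0.518). Ppp1ca, a catalytic subunit of protein phosphatase 1, had −0.43 in TG and 0.27 in het, Nhlrc1, the ubiquitin ligase malin, −0.76 and 0.46, and Gaa, the lysosomal glucosidase, −0.03 and 0.30 (adjusted p of 0.283 to 0.965).

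Among the regulators, the TG livers had higher values of Ppargc1a, the coactivator that drives gluconeogenic genes in fasting, with 905 and 947 in TG libraries, against 525 and 529 in WT (log2 fold change 0.81, SE 0.12, adjusted p = 0.267). Its libraries were close within each group and TG replicate 1 was level with TG replicate 2, in contrast to G6pc and Pck1, and the log2 fold change was 0.84 without TG replicate 1 and 0.78 without TG replicate 2. In het Ppargc1a had 147 and 156, against 140 and 161 in WT (0.01, adjusted p = 0.977). Onecut1, a hepatocyte transcription factor, had 760 and 842 in TG, against 491 and 457 in WT (0.76, adjusted p = 0.348), and 184 and 29.9 in het, against 128 and 156 in WT, where a single het library was low; without het replicate 1 the het value passed the test (−2.20, adjusted p = 0.0144), and without het replicate 2 it was 0.38. Sirt1, a deacetylase, had a log2 fold change of 0.45 for TG and of −0.01 for het, Foxa1, a forkhead factor of hepatocytes, 0.45 and −0.58, and Irs1, an insulin receptor substrate, 0.37 and −0.32 (adjusted p of 0.267 to 0.985). Foxo1, the forkhead factor that insulin restrains, had 910 and 1016 in het, against 654 and 768 in WT (0.44, adjusted p = 0.114), and 2114 and 4210 in TG, against 2214 and 3500 in WT (0.10, adjusted p = 0.952). Stk11, the kinase LKB1, had 1016 and 1144 in het, against 1445 and 1362 in WT (−0.38, adjusted p = 0.127), and −0.02 in TG. Igfbp1 had 545 and 404 in het, against 349 and 325 in WT (0.48, adjusted p = 0.201).

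**Figure D5:**
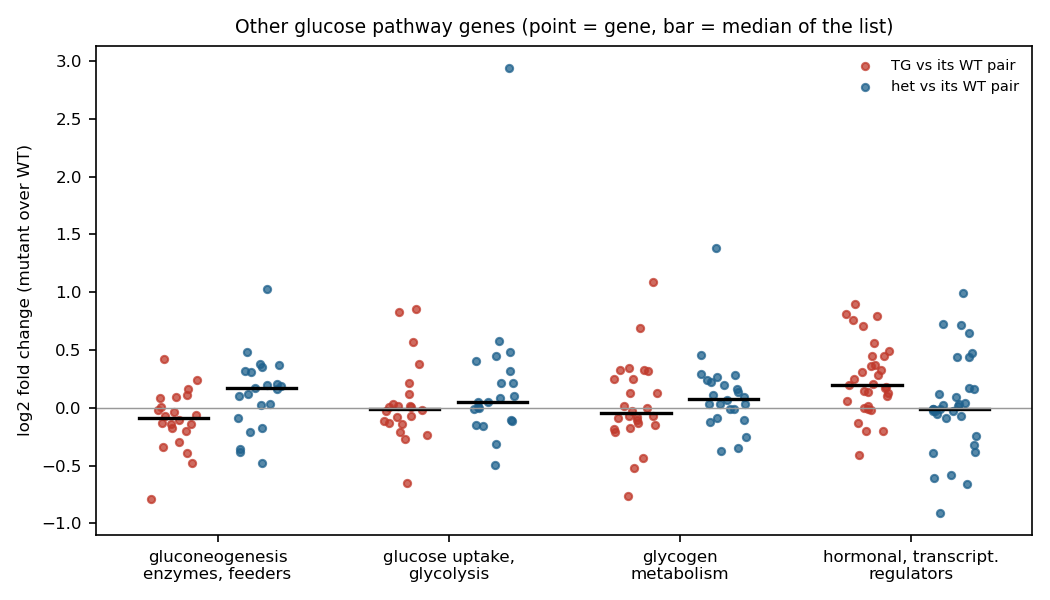
log2 fold change of every measured gene of the 4 wider pathway lists, mutant over WT, for TG (red) and het (blue); each point is a gene, spread sideways only for legibility, and the black bar is the median of the list. The regulators have a median of 0.20 in TG and −0.01 in het, the other medians lie between −0.09 and 0.17, and the highest point, at 2.94, is Pdk4 in het.

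Bulk liver RNA cannot tell fewer cells of a type from less RNA per cell. Hepatocyte markers, 5 of 7 measured, summed to 82387 to 99219 CPM in TG, against 74486 to 92231 in WT, and to 81593 to 91630 in het, against 89073 to 102058 in WT and were the highest of the marker sums. Alb alone held 5.79% to 7.94% of the reads of a library, which was most of each sum. All 5 markers were above WT in TG, 4 of them with groups apart, beside 21.8% of all genes apart and higher. Apoa1, at 2.80-fold, was among them (adjusted p = 0.296). In het 4 of 5 were below WT, and none passed the test in either table. Markers of sinusoidal endothelium summed to 238 to 252 CPM in TG, against 312 to 313 in WT, with 8 of 8 below WT. In het they summed to 276 to 277, against 219 to 245 in WT, with 8 of 8 above. Of these, 2 were called higher in het, Lyve1 and Gpr182, beside 0.892% of all genes. In the difference of the effects, 1 of the 8 was called lower, beside 0.23% of all genes. Kupffer cell markers summed to 347 to 445 in TG, against 556 to 591 in WT (8 of 8 below), and to 453 to 634 in het, against 389 to 530 in WT (6 of 8 above). Their part in the values of the members was not tested.

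Gluconeogenesis is known to be mainly periportal in liver. Without Pck1, the 5 periportal markers summed to 1626 and 1179 CPM in TG, against 1933 and 2095 in WT, and to 1969 and 1371 in het, against 1466 and 1653 in WT. In het 2 of these 5 were above WT, Sds and Cyp2f2, and 3 were below, Hal, Gls2 and Cdh1. In TG only Cdh1 was above, with 687 and 660 normalised reads, against 94 and 188 in WT (adjusted p = 0.287). In the difference of the effects, 1 of 6 periportal markers, with Pck1 counted among them, was called higher, beside 0.204% of all genes. The 7 pericentral markers summed to 6874 and 13458 in TG libraries, against 8910 and 12672 in WT, and to 9990 and 12728 in het, against 14112 and 13807 in WT. TG replicate 1 was the lowest of its table in the pericentral sum and not in the periportal sum. The pericentral sum rested largely on Cyp2e1, with 220956 and 531457 normalised reads in TG libraries, against 321936 and 436762 in WT. By gene, 5 of 7 pericentral markers were above WT in TG and 2 were below. In het, 6 of 7 pericentral markers were below WT, as were 3 of the 5 periportal markers. Of the gluconeogenic members, G6pc, Pck1 and Pcx were above WT in both het libraries, while Fbp1 overlapped WT (log2 fold change 0.06). The part of zonation in those values was not tested.

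Of the other cell types, stellate markers summed to 400 to 544 CPM in TG, against 416 to 470 in WT, and to 384 to 418 in het, against 429 to 436 in WT. Cholangiocyte markers summed to 31.8 to 36.3 in TG, against 31.9 to 53.2 in WT, and to 16.8 to 24.5 in het, against 19.5 to 21.1 in WT, with 1 of 5 measured in het. T and B cell markers summed to 1.96 to 4.88 in TG, against 4.37 to 6.31 in WT, and to 2.70 to 3.64 in het, against 3.15 to 4.57 in WT. Mesothelial markers summed to 7.82 to 14.1 in TG, against 6.86 to 15.2 in WT, and to 2.82 to 3.57 in het, against 10.9 to 12.8 in WT. In het 2 of 3 measured markers, Upk3b and Gpm6a, were called lower, beside 0.544% of all genes. Of the adipocyte markers only Cfd was measured, in the het table, at 1.46 to 3.57 in het, against 0.129 to 0.892 in WT. The 5 markers of skeletal muscle and blood were looked for, and 0 of 5 were among the genes analysed here.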

How the data were processed

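Per the labels' protocols, liver RNA was extracted with Trizol and made into TruSeq libraries. The submitters' processing notes list Subread (1.5.2), featureCounts, DESeq2 and the build mm10/GRCm38, with no roles. The deposited values are signal values, which the authors made by scaling the read counts of each library with 1 factor. Divided by the value of 1 read, 100% of entries in every library came out whole to within 0.001 of a read. The lowest mean listed was 11.2 in the TG table and 17.8 in the het table. Names that a spreadsheet had turned into dates (20 and 18) were kept in the fit of each table and not named. They and repeated names were left out of the fits of all 8 libraries.

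From the tables, log2(value + 1) was fitted with limma 3.58.1 (functions lmFit and eBayes, trended and robust; R 4.3.3) in each table and, for the difference, over the 11754 genes of both. Adjustment was by Benjamini-Hochberg over all genes, with a threshold of 0.05. The fits were checked on counts simulated at a single fixed dispersion. That setting lacks the wide gaps seen between the TG libraries, so it does not give the error rate or power for these data. Levels per kilobase used GENCODE M21 exon lengths, and promoters came from RefSeq. Replicates within a group differed beyond sampling noise, with a chi-square statistic of 18.9 to 383 per degree of freedom.

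The members and the 4 pathway and 11 marker lists were chosen with earlier results of these data known. Named genes were the 9 members, Ube3a and, from each pathway list, every called gene and the 3 of smallest p in each comparison. The likeness rule took 5 genes for each of the members of widest range. The 6 genes of widest TG gap were added after their values were seen. A few of the genes so chosen are left out here. Alternatives were pseudocounts of 0.5 and 5, a mean of at least 5 CPM, no robust estimates, the replicate number as a block, all 8 libraries in a single fit, and leaving out each library. Scaling without the 20 most abundant genes and quantile normalisation were added after the data were seen. TMM, edgeR, DESeq2 and limma-voom were planned and not run here. The deposited values are scaled, and no raw counts were at hand to compare with the reads worked back from them. Those reads serve only as library totals and for the chi-square statistic between replicates given above.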

Additional observations from a re-analysis of the deposited data

Results flagged for a closer look

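Some genes had both TG libraries on one side of their WT pair and both het libraries on the other side of theirs, while the difference of the effects did not pass the test in the joint limma fit. Of the genes listed in both, 15.1% were apart in opposite directions, whether or not their difference passed. Among the members this was Slc2a2, with a difference of 0.81 on the log2 scale, TG effect minus het effect (adjusted p = 0.159). Among the wider lists the difference was positive for Foxa1 (1.03, adjusted p = 0.160) and Irs1 (0.70, adjusted p = 0.261). It was negative for Gpd1 (−1.82, adjusted p = 0.183), Nhlrc1 (−1.22, adjusted p = 0.177), Pgam1 (−0.71, adjusted p = 0.0785), Pgk1 (−0.60, adjusted p = 0.134), Pkm (−0.61, adjusted p = 0.192) and Ppp1ca (−0.70, adjusted p = 0.133). These genes share their libraries, and the pathway genes among them were named in part for their small p.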

How the results depend on the processing

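With 2 libraries a group, single libraries decided much of what was measured. Apart from leaving out a library, no alternative run gave a member past the threshold in any comparison, and no member changed direction. The count of genes called in TG, 0, was 25 in the single fit of all 8 libraries and 0 to 146 when a library was left out, with 146 without TG replicate 2 and 6 without TG replicate 1. The het count, 169, was 93 without robust estimates, 0 in the single fit and 61 to 173 with a library left out. The count for the difference, 51, was 36 to 54 under the other settings and 5 to 643 with a library left out, the highest without TG replicate 2 and 137 without TG replicate 1. Members called were 0 to 1 in TG, 0 to 1 in het and 0 to 4 in the difference with a library left out; the remaining library of that arm was then assumed to vary like the others. Same-numbered libraries shared only a number: their deviations correlated at 0.14 in the TG table and −0.094 in the het table across genes, and with the replicate block 0, 138 and 46 genes were called in TG, het and the difference, with 0 members in each.

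Log2 fold changes close to 0 changed sign under some settings: Pdha1 in TG to −0.021 (scaled without the 20 most abundant genes) and −0.029 (quantile normalisation), Hk2 in het to −0.00106 (pseudocount 5), −0.017 and −0.033 (the same pair of scalings), and Ppargc1a in het to −0.00305 (scaled without the 20 most abundant genes). Pdk4 in het passed the test without robust estimates (adjusted p = 0.0321) and Slc37a4 in het under quantile normalisation (adjusted p = 0.0476). With a library left out, pathway genes passed as well. In TG these were Pklr, Ppp1r3c and Foxa2. In het they were Pdk4 (adjusted p = 0.00133 and 0.00718), Onecut1 (0.0144), Gpd1 (0.0199), Ppp1r3g (0.0355), Foxa1 (0.0435), Foxa2 (0.0133), Sik1 (0.00446) and Cebpb (0.00863). In the difference they were Gpd1 (0.0200), Onecut1 (0.0249), Igfbp1 (0.0293), Pgam1 (0.0380), Ppp1ca (0.0443), Pklr (0.0403), Mlxipl (0.0303) and Ldha (0.0172). Foxa2, Cebpb, Mlxipl and Ldha were named after their values were seen. With a library left out, the sign of some members' values changed. In TG these were G6pc (−1.94 to 0.19), Pck1 (−1.65 to 0.69), Pcx (−0.46 to 0.023), Gckr (−0.22 to 0.46), Ppp1r3b (−0.033 to 1.37), Gys2 (−0.024 to 0.30) and Pygl (−0.079 to 0.46). In het these were Fbp1 (−0.057 to 0.18) and Pygl (−0.37 to 0.048), and in the difference Gckr (−0.087 to 0.60) and Ppp1r3b (−0.52 to 0.89). The sign of Slc2a2 held in all 3 comparisons under every setting run. For pathway genes, signs were followed only in those named for their small p, and not in others such as Pklr, Sik1, Irs2 and Ppp1r3c. The TG libraries of Pklr and of Sik1 lay on either side of their WT pair. Among the genes followed, signs changed in TG for Foxo1 (−0.40 to 0.60), Gaa (−0.18 to 0.12), Igfbp1 (−0.52 to 2.31), Pdk4 (−1.11 to 0.94), Ppp1r3g (−0.82 to 1.47), Slc2a1 (−0.35 to 0.077), Stk11 (−0.11 to 0.077) and Ugp2 (−0.38 to 0.088). They changed in het for Aldoc (−0.39 to 0.37), Gyg (−0.17 to 0.24), Hk2 (−0.18 to 0.18), Onecut1 (−2.20 to 0.38), Pfkfb2 (−0.28 to 0.071), Ppargc1a (−0.084 to 0.11) and Sirt1 (−0.15 to 0.13). In the difference they changed for Aqp9 (−0.29 to 0.11), Foxo1 (−0.84 to 0.16), Igfbp1 (−0.998 to 1.83), Ppp1r3g (−2.21 to 0.086) and Ugp2 (−0.0045 to 0.46). In these fits a single library stands for the group that lost a library, so the sign follows the library kept. Why the libraries of a group differ was not tested. The het libraries held fewer reads than the TG libraries, and whether low genes were less precise there was not tested. Over all genes the median gap between replicates was narrower in het and its WT pair (0.142 and 0.150) than in TG and its WT pair (0.224 and 0.182).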
